A study of Mus musculus with 10 samples.

Results

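The thick and thin filaments of the heart muscle sarcomere were followed through 10 member genes, taken from the count files as the rows whose Ensembl identifier maps to Myh6, Myh7, Ttn, Actc1, Acta1, Tpm1, Tnnt2, Tnni3, Tnni1 or Tnnc1. They are 10 of 37583 gene rows, and 9 of the 10 had enough counts to be tested. Each library held poly(A)-selected RNA from the left atrium of adult mice. Mice that received vehicle (CTL) and mice that received ibrutinib (IBR), a tyrosine kinase inhibitor given in B cell malignancies, had 3 libraries per group. Wild-type mice without treatment (WT) and mice labelled as a cardiac knockout of Csk (KO), the gene of a kinase that restrains Src family kinases, had 2 per group. Dose, duration, vehicle, strain and the driver of the knockout were not stated in the labels. Nor do the labels tie each library to its own mouse, so the p-values speak of the spread between libraries, which may be technical.

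In the sarcomere, heads of myosin heavy chains on the thick filament pull on actin of the thin filament, and calcium starts each beat by binding troponin C, which shifts troponin and tropomyosin off the myosin sites on actin. Adult mouse atrium and ventricle run on the fast alpha myosin heavy chain Myh6, while the slow beta chain Myh7, the skeletal actin Acta1 and the slow troponin I Tnni1 belong to the fetal heart or to skeletal muscle. Myh7 and Acta1 are known to return in stressed heart muscle. Titin spans from Z-disc to M-band and acts as the spring of the sarcomere.

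Libraries held 14907331 to 19960947 counts on genes, and levels are given as CPM, counts scaled to a common library size by trimmed means of M values (TMM). A gene is called when edgeR's quasi-likelihood test gives it an adjusted p under 0.05, fitted over all 10 libraries and 15364 genes. Csk was not lower under its knockout label. Its level was 18.3 CPM in WT35, 17.8 in WT338, 24.7 in KO26 and 35.5 in KO337, so the last 2 are called libraries labelled KO and every direction in that comparison is one of the labels. Csk was not called (log2 difference 0.74, SE 0.18, adjusted p = 0.0608 in edgeR's quasi-likelihood test), while DESeq2 called it higher (adjusted p = 0.012). Without KO337 its log2 difference was 0.44. The RNA came from left atrium as a tissue, so Csk in heart muscle cells alone was not measured. KO337 also stood apart from KO26, and the members are given for both libraries. The atrial light chain Myl4 was high in all libraries, at 2577 to 11072 CPM, and the ventricular light chain Myl2 was low, at 0.148 to 8.62 CPM, as the tissue label implies. Of 11 skeletal muscle genes, Tnnc2 and Myog had no counts in any library. The 4 with enough counts to be tested summed to 7.43 to 22.2 CPM.

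Among the thick filament genes, Myh6 (ENSMUSG00000040752) was the most abundant of all genes by mean CPM in CTL, in WT and in the libraries labelled KO. It stood at 44405, 30464 and 43071 CPM in CTL, at 39720, 38439 and 39010 CPM in IBR, at 36526 CPM in WT35, 34119 in WT338, 28582 in KO26 and 12878 in KO337. KO337 was the lowest of the 10 libraries, CTL2 was low within its group, and the IBR values lay inside the CTL range.

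Myh7 (ENSMUSG00000053093) stood at 129, 163 and 257 CPM in CTL, at 133, 78.1 and 113 CPM in IBR, at 856 CPM in WT35, 291 in WT338, 705 in KO26 and 149 in KO337. WT35 and KO26 were high and WT338 and KO337 low, so libraries within a genotype differed more than the genotypes did, and the groups overlapped in both comparisons. Per kilobase of transcript, the Myh6 level was 6487 CPM in CTL against 29.6 CPM for Myh7.

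Titin (Ttn, ENSMUSG00000051747) stood at 3053, 3390 and 2870 CPM in CTL, at 2643, 4074 and 2925 CPM in IBR, at 8774 CPM in WT35, 9276 in WT338, 6458 in KO26 and 3246 in KO337. The IBR values spread around those of CTL, and both libraries labelled KO lay below both WT libraries. Per kilobase of its 100404-base transcript, Ttn stood at 30.9 CPM in CTL and 89.9 CPM in WT. CTL and WT belong to different experiments and were not tested against each other. Long transcripts as a class stood higher in WT: the median log2 difference between WT and CTL was -0.49 over 638 genes under 1000 bases, 0.20 over 3243 genes of 4000 to 8000 bases and 0.67 over 18 genes above 16000 bases, against 1.54 for Ttn. The part of transcript length in the titin levels was not tested further.

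Among the thin filament genes, Actc1 (ENSMUSG00000068614), the cardiac actin, stood at 11898, 13253 and 10546 CPM in CTL, at 8207, 8267 and 7556 CPM in IBR, at 8312 CPM in WT35, 7463 in WT338, 6467 in KO26 and 4653 in KO337. All IBR libraries were below all CTL libraries, and both libraries labelled KO were below both WT libraries. Acta1 (ENSMUSG00000031972), the skeletal actin, stood at 0.683, 3.89 and 0.906 CPM in CTL, at 0.555, 1.9 and 1.04 CPM in IBR, at 1.88 CPM in WT35, 0.943 in WT338, 1.74 in KO26 and 3.62 in KO337. These levels rest on 9 to 80 counts a library, CTL2 and KO337 were high, and the groups overlapped in both comparisons.

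Tpm1 (ENSMUSG00000032366), alpha tropomyosin, stood at 5958, 7055 and 5111 CPM in CTL, at 4605, 5630 and 4320 CPM in IBR, at 4709 CPM in WT35, 4128 in WT338, 3775 in KO26 and 2977 in KO337. Tnnt2 (ENSMUSG00000026414), the troponin T that anchors the troponin complex to tropomyosin, stood at 9660, 10762 and 7500 CPM in CTL, at 7884, 8810 and 7650 CPM in IBR, at 7843 CPM in WT35, 7661 in WT338, 5136 in KO26 and 3018 in KO337. For both genes CTL and IBR overlapped, and the libraries labelled KO lay below WT.

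Tnni3 (ENSMUSG00000035458), the adult cardiac troponin I that holds back contraction until calcium binds, stood at 5111, 5084 and 3940 CPM in CTL, at 3757, 4407 and 4008 CPM in IBR, at 3628 CPM in WT35, 3058 in WT338, 2276 in KO26 and 961 in KO337. CTL and IBR overlapped through CTL3, and KO337 was the lowest library. Tnni1 (ENSMUSG00000026418), the slow skeletal and fetal troponin I, stood at 3.07, 0.504 and 1.69 CPM in CTL, at 3.45, 1.55 and 1.1 CPM in IBR, at 0.841 CPM in WT35, 0.503 in WT338, 0.639 in KO26 and 0.996 in KO337, on 7 to 56 counts a library. The groups overlapped in both comparisons. Tnnc1 (ENSMUSG00000091898), the calcium-binding troponin C of heart, had 0 to 2 counts in each library under the row that carries its identifier. It was not tested and no level of troponin C is read from it.

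**Figure D1:**
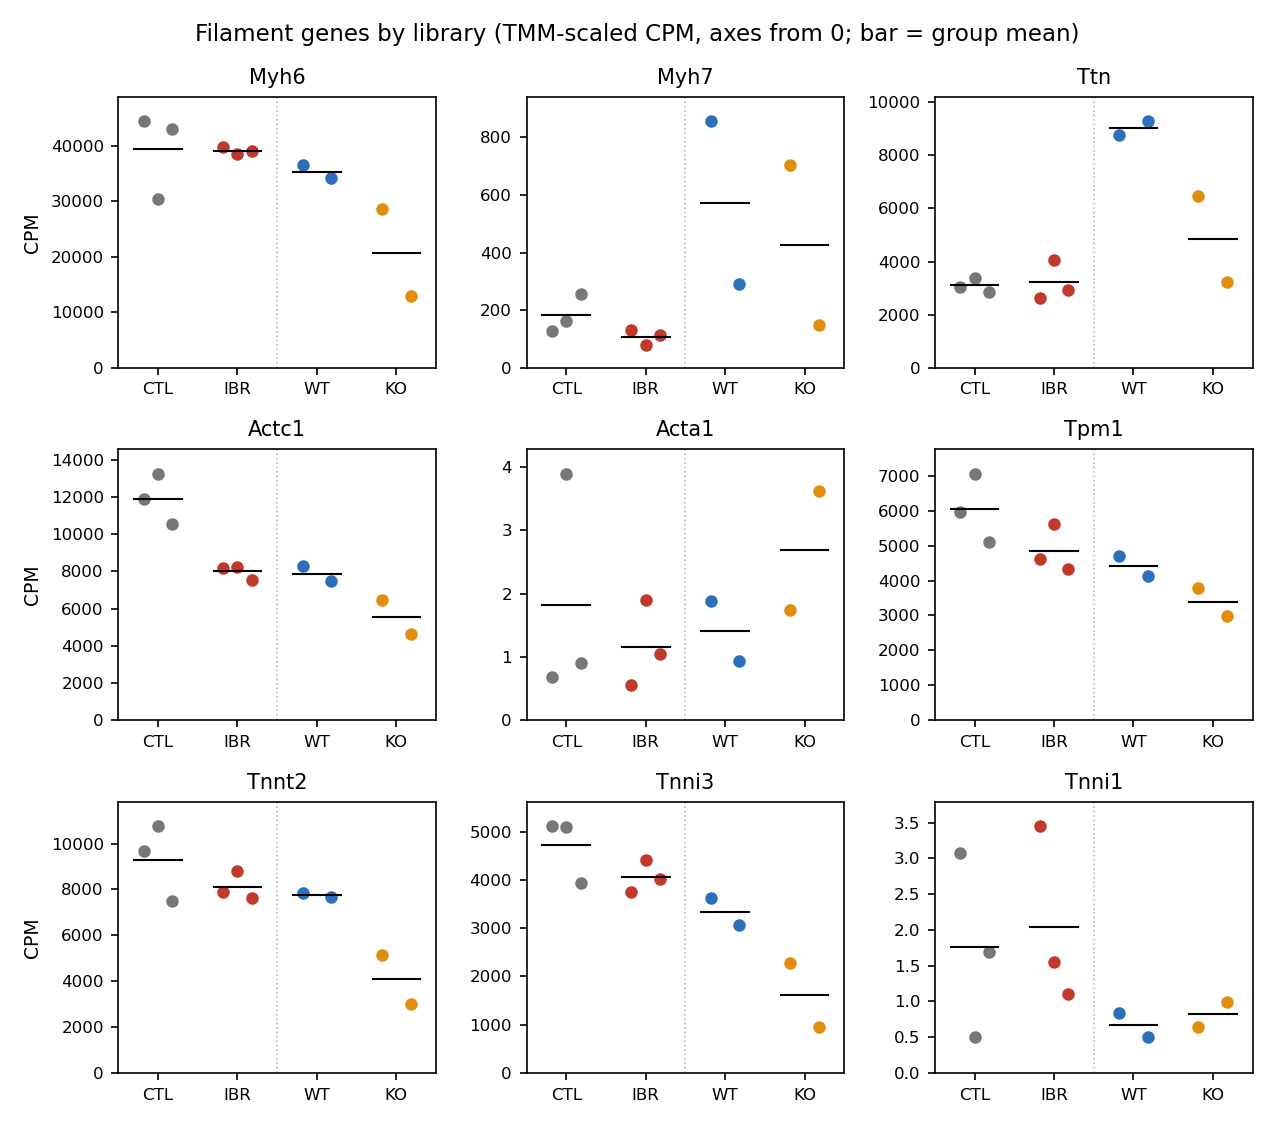
TMM-scaled CPM (y axes, linear from 0, each gene with its own range) of the 9 tested filament genes in CTL, IBR, WT and KO (x axis), 1 point per library and a bar at the group mean. Actc1 separates IBR from CTL, KO337 is the lowest of the 10 libraries for Myh6, Actc1, Tpm1, Tnnt2 and Tnni3, and Ttn stands at 8774 and 9276 CPM in WT against 2870 to 3390 CPM in CTL.

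Per kilobase of transcript the order of the CTL means was Tnnt2 at 8104 CPM, Actc1 at 8078, Myh6 at 6487, Tnni3 at 5166, Tpm1 at 3183, Ttn at 30.9, Myh7 at 29.6, Tnni1 at 1.74 and Acta1 at 1.26 CPM. The order of the neighbours Tnnt2 and Actc1, Myh6 and Tnni3, Ttn and Myh7, and Tnni1 and Acta1 changed between the CTL libraries, so these pairs do not differ beyond their spread. The SD over CTL was 1660 CPM for Tnnt2, 1354 CPM for Actc1 and 7693 CPM for Myh6 before division by length. Lengths are means over the principal protein-coding transcripts of each gene in GENCODE vM21. Transcripts of Tpm1 and Tnnt2 vary in length, so their place in the order depends on this choice.

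Within 3 pairs of alternative isoforms, the adult cardiac gene held nearly all of the signal per transcript length in every library. Myh7 made up 0.284%, 0.523% and 0.582% of the Myh6 and Myh7 signal in CTL and 0.327%, 0.199% and 0.283% in IBR. It made up 2.25% and 0.83% in WT, and 2.36% and 1.12% in KO26 and KO337. The 3 IBR libraries stood below CTL2 and CTL3, while IBR1 stood above CTL1, so the groups overlapped. The share ran from 0.83% to 2.36% in the genotype experiment without separating the genotypes. Acta1 made up 0.00585% to 0.0792% of the actin pair and Tnni1 0.00896% to 0.0935% of the troponin I pair. Both extremes at the top were KO337.

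The log2 ratio of Myh7 to Myh6 counts averaged -7.79 ± 0.56 in CTL and -8.53 ± 0.37 in IBR (SD, n = 3 each), a difference of -0.75 with an exact two-sided permutation p of 0.2. In the libraries labelled KO it differed from WT by 0.25 (exact permutation p = 0.667, 2 against 2 libraries). The ratio of Acta1 to Actc1 differed by 0.19 between IBR and CTL and by 1.44 between KO and WT, with exact permutation p of 0.9 and 0.333, and that of Tnni1 to Tnni3 by 0.60 and 1.47, with exact permutation p of 0.7 and 0.333. The 1.44 and 1.47 come with both libraries labelled KO above both WT libraries, and without KO337 they were 0.67 and 0.52. The smallest p these designs allow is 0.1 for 3 against 3 and 0.333 for 2 against 2 libraries. Over all 6 relations no adjusted p was under 0.667, so no shift between isoforms was shown. Of the 50-base stretches of Myh6 transcripts 21.9% also occur in Myh7, so reads from them have no unique position and can be missing from both genes. Exons of Myh7 overlap the antisense genes Gm31251 over 523 bases (6.07% of Myh7 exon bases), Mhrt over 484 bases (5.62%) and Gm29015 over 142 bases (1.65%). Exons of Myh6 overlap the antisense gene Gm49130 over 114 bases (1.69% of Myh6 exon bases), and counting ignored strand.

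**Figure D2:**
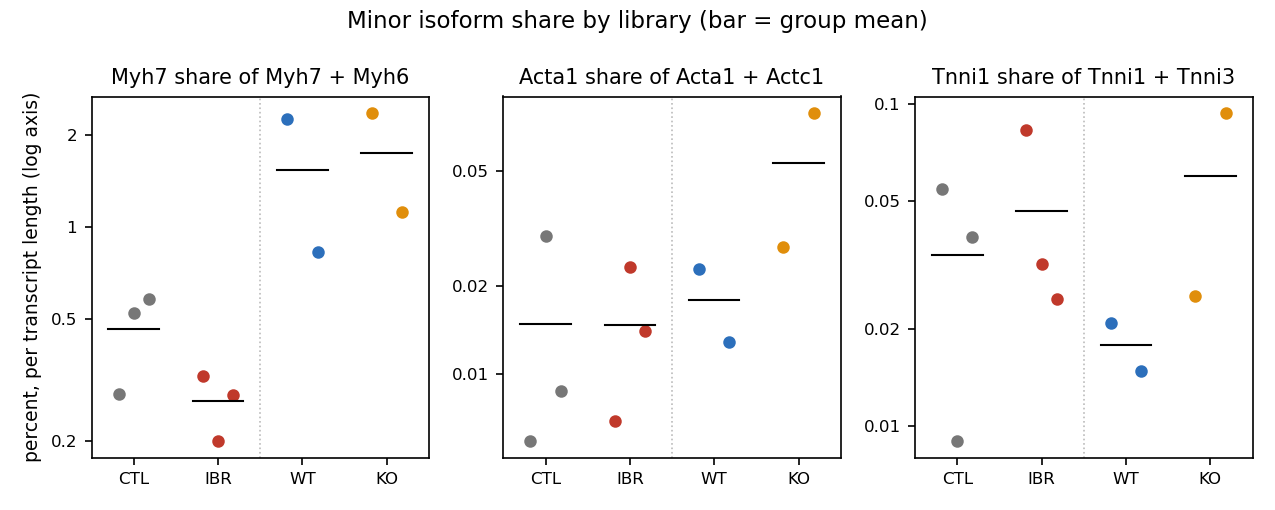
Share of the minor isoform in each isoform pair (y axis, percent per transcript length, log scale) by group (x axis), 1 point per library and a bar at the group mean. Myh7 runs from 0.199% to 2.36%, and KO337 has the highest share of Acta1 (0.0792%) and of Tnni1 (0.0935%).

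The actin and myosin pairs are shown with the 250 bases before their annotated starts (RefSeq, GRCm38.p6), because the partners of each pair share a motif and differ in level by orders of magnitude. Capitals mark the CArG box, the binding site of serum response factor, and CATTCC or its reverse complement GGAATG, the M-CAT core bound by TEAD factors.
Actc1 (chr2:114052876-114053125, minus strand): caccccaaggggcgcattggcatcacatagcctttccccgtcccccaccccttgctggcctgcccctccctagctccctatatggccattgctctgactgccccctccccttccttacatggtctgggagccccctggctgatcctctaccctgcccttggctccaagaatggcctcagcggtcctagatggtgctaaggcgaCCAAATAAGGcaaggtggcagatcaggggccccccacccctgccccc
Acta1 (chr8:123894776-123895025, minus strand): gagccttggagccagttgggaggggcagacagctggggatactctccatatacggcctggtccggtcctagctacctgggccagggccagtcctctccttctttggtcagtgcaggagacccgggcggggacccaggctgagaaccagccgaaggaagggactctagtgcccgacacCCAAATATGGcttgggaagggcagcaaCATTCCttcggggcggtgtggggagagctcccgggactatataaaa
Myh6 (chr14:54966608-54966857, minus strand): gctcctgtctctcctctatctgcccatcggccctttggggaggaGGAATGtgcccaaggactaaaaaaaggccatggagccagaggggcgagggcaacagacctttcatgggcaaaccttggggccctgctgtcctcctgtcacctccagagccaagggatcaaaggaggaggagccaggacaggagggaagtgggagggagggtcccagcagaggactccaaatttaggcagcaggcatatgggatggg
Myh7 (chr14:54994627-54994876, minus strand): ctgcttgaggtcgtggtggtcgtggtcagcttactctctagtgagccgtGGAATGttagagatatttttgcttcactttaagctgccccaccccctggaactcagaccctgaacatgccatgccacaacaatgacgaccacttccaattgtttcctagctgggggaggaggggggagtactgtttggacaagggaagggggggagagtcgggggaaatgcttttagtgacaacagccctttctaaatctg
The CArG box of Actc1 begins at base -47 and that of Acta1 at base -73 from the start, and the M-CAT cores of Myh6 and Myh7 begin at -206 and -201, both on the reverse strand.

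All 10 member genes matched a promoter window of 250 bases before to 50 bases after a start, in 13 windows, of which those of Myh7 and of Tnni1 overlap each other. Searched on both strands, the CArG box was in 2 of the 13 windows (Actc1 and Acta1), against 1.63% of 32851 windows of all genes, and the MEF2 site in 1 (Ttn), against 3.19%. CATTCC was in 7 windows, of Acta1, Myh6, Myh7, Tnnt2, Tnnc1, Tpm1 and Ttn, against 14.7% of all windows. TATAAA was in 3 (13.6% of all), AGATAA in 1 (11.2%), AAGTG in 5 (46.4%) and the E-box CANNTG in all 13 (72.3%). No CArG box, MEF2 site or CATTCC match overlapped another of these. A match gives letters in a window and no binding, and the series' own genome build is mm9.

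The myosin genes also carry the precursors of related microRNAs in their introns. Mir208a lies within Myh6 and Mir208b within Myh7, on the same strand and with no base in a protein-coding exon. Their mature 3p forms share the seed, bases 2 to 8, in capitals (RefSeq, GRCm38.p6).
mmu-miR-208a-3p (chr14:54949072-54949093, minus strand): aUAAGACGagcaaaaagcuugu
mmu-miR-208b-3p (chr14:54975710-54975731, minus strand): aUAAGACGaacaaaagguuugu
Poly(A)-selected libraries do not measure the mature forms, and the rows hold reads over the precursor loci. The Mir208b row stood at 4.32, 4.54 and 10.4 CPM in CTL, at 4.81, 2.53 and 3.24 CPM in IBR, at 17.6 CPM in WT35, 13.1 in WT338, 15.5 in KO26 and 5.07 in KO337. It was not called in either comparison, with log2 differences of -0.87 (SE 0.48) and -0.59 (SE 0.55) and adjusted p of 0.823 and 0.537 in edgeR's quasi-likelihood test. The Mir208a row held 0 to 16 counts a library. Over the 10 libraries and 11624 genes compared, Mir208b was the gene whose log2 CPM was most like that of its host Myh7 (Pearson r = 0.952).

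Next for Myh7 came Catsper2 (0.948) and Pde4c (0.92). The genes most like Myh6 were Hadha (0.979), a subunit of the mitochondrial trifunctional protein of fatty acid oxidation, Gpbp1l1 (0.978) and Cdc5l (0.971). For Acta1 they were Ermard (0.913), Stx6 (0.883) and Bend6 (0.882), and for Tnni1 they were Tst (0.948), Recql5 (0.922) and Natd1 (0.91). Among the members themselves, the 36 pairwise correlations ran from -0.70 to 0.98, the last between Tnnt2 and Tnni3, with a median of 0.04. These are descriptions over libraries that share groups and experiments.

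For ibrutinib against vehicle, the question was whether drug treatment went with a different level of contractile filament transcripts. No member passed the test, and Actc1 came nearest. The mean of Actc1 was 11899 ± 1354 CPM in CTL and 8010 ± 394 CPM in IBR (SD, n = 3 each), 1.49-fold lower, with a log2 difference of -0.57 (SE 0.21). Its p of 0.019 became an adjusted p of 0.823 over all genes in edgeR's quasi-likelihood test, and it ranked 285 of 15364 genes by p. The direction held in 3 of 3 IBR libraries and under all 15 alternatives run, where its adjusted p ran from 0.121 to 1.

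In this comparison 0 of 9 members were called, as were 0% of all 15364 genes tested in edgeR's quasi-likelihood test, of which 848 (5.52%) passed an unadjusted p of 0.05. DESeq2 called 0 members and 2 genes. At an unadjusted p under 0.05, 1 member (Actc1) was lower, with 2.21% of all genes lower by that rule. CTL and IBR libraries did not overlap for Actc1 alone of the 9, and 7.55% of all genes were non-overlapping and lower. Of the 9 differences 7 were negative, against 55.2% of all genes, with a median of -0.22 against -0.03 for all genes tested. That count depends on the scaling: with factors taken from other heart muscle genes, which move the median of all genes to 0.18, 4 were negative.

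The myosin genes gave no called difference. Myh6 averaged 39313 ± 7693 CPM in CTL and 39056 ± 641 CPM in IBR (SD, n = 3 each), a log2 difference of -0.01 (SE 0.31, adjusted p = 0.996 in edgeR's quasi-likelihood test). Myh7 averaged 183 ± 66.4 and 108 ± 27.7 CPM, a log2 difference of -0.76 (SE 0.57, adjusted p = 0.827). Ttn differed by 0.05 (SE 0.27) on the log2 scale. Of the regulatory proteins of the thin filament, Tpm1 differed by -0.32 (SE 0.21, adjusted p = 0.824), Tnni3 by -0.22 (SE 0.29) and Tnnt2 by -0.20 (SE 0.24) in the same test. The low genes Acta1 and Tnni1 differed by -0.62 (SE 0.70) and 0.19 (SE 0.60). Without CTL2 the Acta1 difference was 0.56 and that of Tnni1 -0.23, so both signs turn with CTL2. The sign of Tnni1 also turned without IBR1 (-0.42) and that of Ttn without IBR2 (-0.16).

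The libraries labelled KO were compared with WT to see which filament transcripts went with the genotype label. No member was called, and all of the abundant filament genes except Myh7 were lower in both libraries labelled KO than in both WT libraries. Tnni3 averaged 1618 CPM in the libraries labelled KO and 3343 CPM in WT, 2.07-fold lower, with a log2 difference of -1.05 (SE 0.35, adjusted p = 0.112 in edgeR's quasi-likelihood test). Tnnt2 was 1.9-fold lower (log2 -0.93, SE 0.30, adjusted p = 0.101) and Ttn 1.86-fold lower (log2 -0.90, SE 0.33, adjusted p = 0.133) in that test. Fewer heart muscle cells and less filament RNA per cell cannot be told apart in whole tissue.

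Here 0 of 9 members were called, against 2.21% of all genes in either direction and 0.898% lower, while DESeq2 called Tnnt2, Tnni3 and Ttn lower (adjusted p of 0.00688, 0.0187 and 0.032) among 1858 genes. At an unadjusted p under 0.05, 3 members were lower in edgeR's test, with 12.4% of all genes lower by that rule. The libraries did not overlap, with KO lower, for 6 of 9 members (Myh6, Actc1, Tpm1, Tnnt2, Tnni3 and Ttn), against 26.9% of all genes. The median of the 9 differences was -0.50, against 0.01 over all genes tested, and 7 were negative, against 49.2% of all genes.

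The remaining members had wider errors relative to their differences. Myh6 averaged 20730 CPM in the libraries labelled KO and 35323 CPM in WT, a log2 difference of -0.77 (SE 0.38, adjusted p = 0.225 in edgeR's quasi-likelihood test). Actc1 differed by -0.50 (SE 0.25, adjusted p = 0.232) and Tpm1 by -0.39 (SE 0.26, adjusted p = 0.361) in that test. Myh7 differed by -0.43 (SE 0.69), Acta1 by 0.92 (SE 0.82) and Tnni1 by 0.28 (SE 0.81). These 3 had overlapping groups, and the sign of Myh7 turned to 0.54 without WT35 and to 0.27 without KO337.

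**Figure D3:**
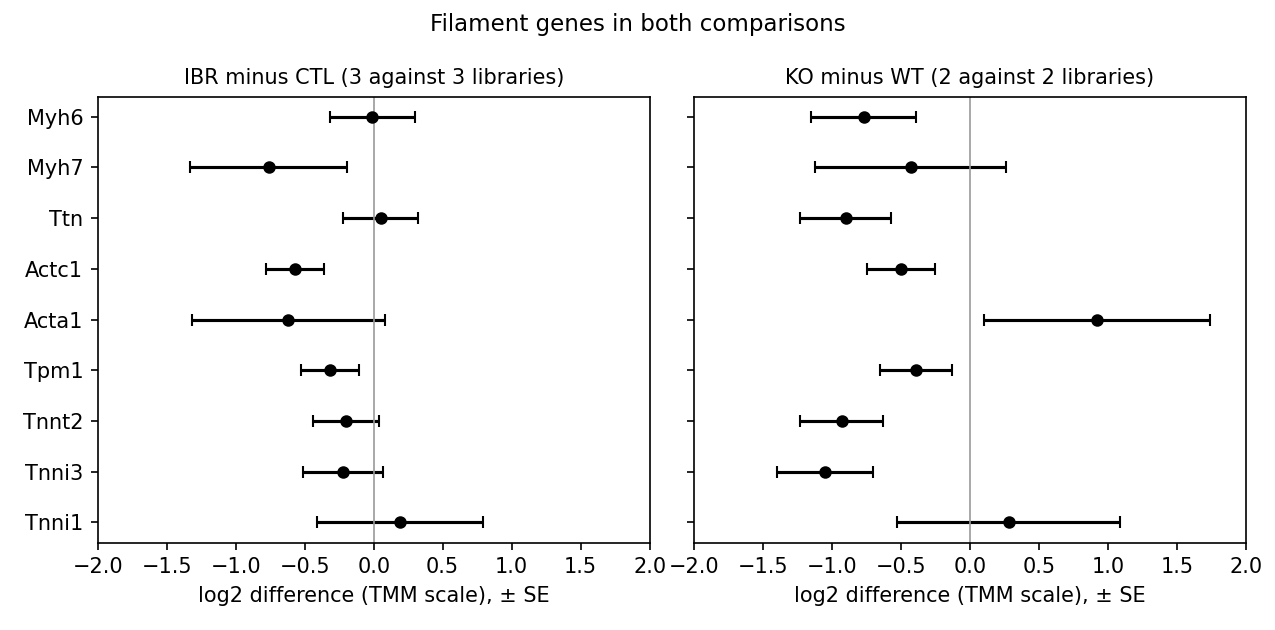
Log2 difference on the TMM scale (x axis) with its standard error for each tested filament gene (y axis), IBR minus CTL on the left and KO minus WT on the right. The smallest adjusted p are 0.823 for Actc1 on the left and 0.101 for Tnnt2 on the right.

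KO337 carried most of these differences. Against the mean of the WT libraries, the log2 difference in KO26 and in KO337 was -0.55 and -1.79 for Tnni3, -0.59 and -1.36 for Tnnt2, and -0.48 and -1.47 for Ttn. For Myh6 it was -0.30 and -1.45, for Actc1 -0.28 and -0.76, and for Tpm1 -0.22 and -0.57. All 6 genes were thus lower in both libraries, with a larger difference in KO337. Without KO337, edgeR's quasi-likelihood test called 0 members, with Tnnt2 at -0.61 (adjusted p = 0.248), Tnni3 at -0.57 (adjusted p = 0.263) and Ttn at -0.50 (adjusted p = 0.384). Without KO26 it called 5 members lower, Myh6, Actc1, Tnnt2, Tnni3 and Ttn, among 3933 genes called; that test assumes that the lone library varies like the other groups.

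Other heart muscle transcripts were also lower in the libraries labelled KO. A list of 20 genes outside the filaments (calcium cycling, energy supply and others, with Atp2a2 and Ryr2 among them) summed to 48499 and 45777 CPM in WT, 35701 CPM in KO26 and 18022 CPM in KO337, and the median log2 difference was -0.83, negative for 20 of 20. Of these 20 genes 1 was called lower in edgeR's quasi-likelihood test (0 without KO337). DESeq2 on all libraries called 10 of them lower, and without KO337 the median of the 20 in edgeR's fit was -0.46. Read relative to the mean of those genes, the log2 level of Myh6 was 5.45 and 5.46 in WT, 5.61 in KO26 and 5.43 in KO337, and that of Ttn was 3.39 and 3.58 in WT, 3.47 in KO26 and 3.45 in KO337. On this scale both genes kept within 0.16 of the WT mean. Tnnt2 stood at -0.13 in KO26 and 0.08 in KO337 relative to the WT mean, and Tnni3 at -0.09 and -0.36.

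Actc1 and Tpm1 were above the WT mean on the scale of other heart muscle genes, by 0.18 and 0.68 for Actc1 and by 0.24 and 0.87 for Tpm1 in KO26 and KO337. With library factors from those 20 genes, which shift the median of all genes by 1.02 on the log2 scale, Actc1 differed by 0.45 (adjusted p = 0.0283) and Tpm1 by 0.59 (adjusted p = 0.0239), both higher, in edgeR's quasi-likelihood test. Both differences lay below the median of all genes on that scale. Without KO337 they differed by 0.18 and 0.24 on that scale, and no member was called. The direction of Actc1 and Tpm1 in the libraries labelled KO therefore flips between scalings, as does that of Myh6 (0.07) and Myh7 (0.29), while Tnnt2 differed by -0.03 (SE 0.12), Ttn by -0.03 (SE 0.15) and Tnni3 by -0.22 (SE 0.13), with none of these called.

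**Figure D4:**
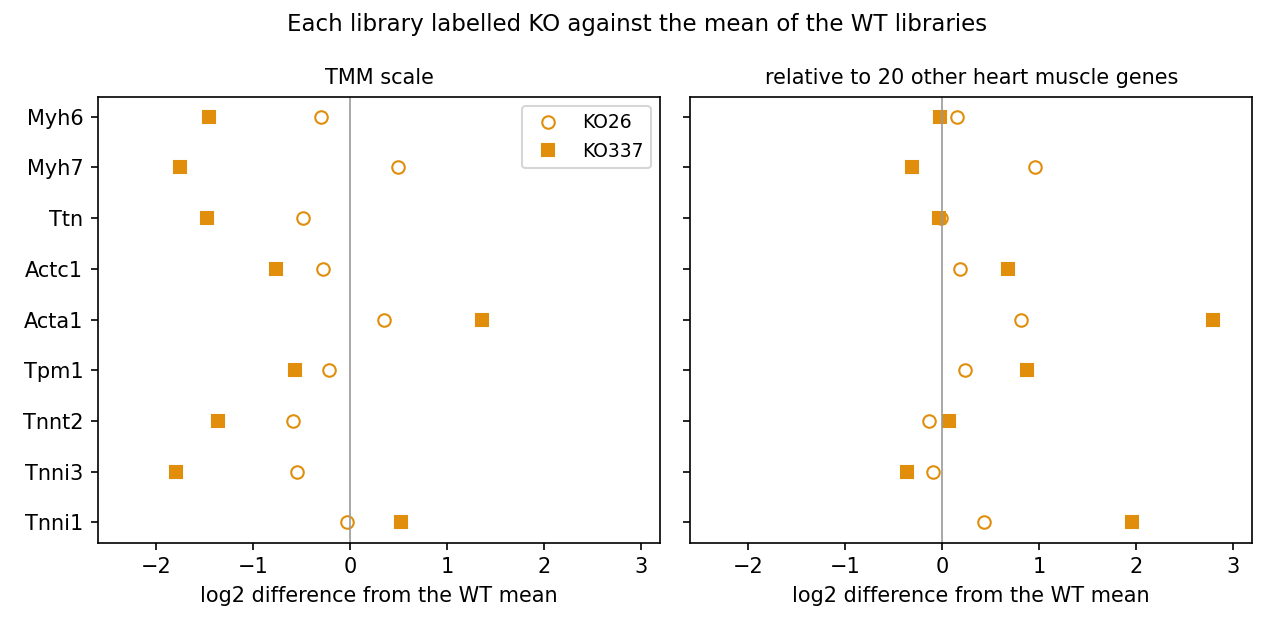
Log2 difference of KO26 (open circles) and KO337 (filled squares) from the mean of the WT libraries (x axis) for each filament gene (y axis), on the TMM scale at left and relative to the mean of 20 other heart muscle genes at right. At left KO337 lies further below 0 than KO26 for Myh6, Ttn, Actc1, Tpm1, Tnnt2 and Tnni3, and at right Myh6 and Ttn lie near 0 while Actc1 (0.68) and Tpm1 (0.87) lie above it in KO337.

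Together the 9 members took 7.19%, 6.10% and 7.09% of all gene counts in CTL and 6.76%, 6.36% and 6.37% in IBR. They took 7.16% and 6.77% in WT, 6.17% in KO26 and 3.42% in KO337, so KO337 stood below the other 9 libraries. In the genotype experiment fibroblast and leukocyte markers stood higher in the libraries labelled KO. CTL2, with the next lowest share after KO337, had the lowest fibroblast sum (1062 CPM). Its low share lay in Myh6, at 2.65% of gene counts against 3.98% in CTL1 and 4.17% in CTL3. The Actc1 share of CTL2 (1.15%) and its sum over the other heart muscle genes (63397 CPM) were the highest of all libraries. The 10 fibroblast markers summed to 2778 and 2555 CPM in WT, 3251 CPM in KO26 and 12559 CPM in KO337, with 1 of 10 called higher (0 without KO337; 1.31% of all genes were called higher), and Dcn, the most abundant, at 1400, 1283, 1482 and 2451 CPM. The 12 leukocyte markers summed to 403 and 410 CPM in WT, 1230 CPM in KO26 and 3521 CPM in KO337, with 5 of 12 called higher (1 without KO337), and Lyz2, the most abundant, at 151, 149, 307 and 1840 CPM. None of these markers was at 0 in any library. In IBR the fibroblast sum was 1695 to 2547 CPM against 1062 to 1658 CPM in CTL, and the leukocyte sum 312 to 516 CPM against 252 to 289 CPM, with 0 markers called in edgeR's quasi-likelihood test (3 and 4 higher at an unadjusted p under 0.05, as were 3.31% of all genes). Mesothelial markers were positive for 6 of 6 (median log2 0.67) and endothelial markers for 7 of 8 (median 0.35), with 0 called and 1 in each list higher at an unadjusted p under 0.05. The part of cell composition in the filament differences was not tested.

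Of 8 smooth muscle markers 6 stood highest in KO337, all but Smtn and Myocd. The list summed to 513 and 502 CPM in WT, 368 CPM in KO26 and 690 CPM in KO337, with a median log2 difference of 1.44 (-0.08 without KO337). In edgeR's quasi-likelihood test 0 of them were called (4 higher and 2 lower at an unadjusted p under 0.05), and DESeq2 called 4 higher and 2 lower. Tagln stood at 13.1 and 8.42 CPM in WT, 11.2 CPM in KO26 and 153 CPM in KO337, and Lmod1 at 2.32, 0.943, 2.67 and 36.4 CPM. Smtn, the most abundant, stood at 279, 235, 183 and 169 CPM. Of 8 endothelial markers, led by Pecam1, 0 were called and the median log2 difference was 0.24. Of 6 adipocyte markers, led by Fabp4, 0 were called (median 0.32), and of 6 mesothelial markers, led by Upk3b, 0 were called (median -0.59, negative for 6 of 6). The actin and myosin genes of cells other than striated muscle, led by Actb at 394 to 682 CPM in WT and 617 and 1068 CPM in the libraries labelled KO, had a median of 0.57 with 0 of 8 called. By edgeR's quasi-likelihood test at an unadjusted p under 0.05, 0 endothelial, 0 adipocyte, 1 mesothelial and 2 of those actin and myosin genes stood out, and without KO337 none of the 4 lists had a median beyond -0.23 to 0.00. Of the muscle lists, the atrial one, led by Myl4, had a median of -0.92 and the ventricular one, led by Pln, -0.50, with 0 members called in each. Without KO337 the medians were -0.55 and -0.16, and DESeq2 on all libraries called 4 and 1 lower. Tnni2, the highest of the skeletal list, stood at 1.99 to 18.4 CPM.

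**Figure D5:**
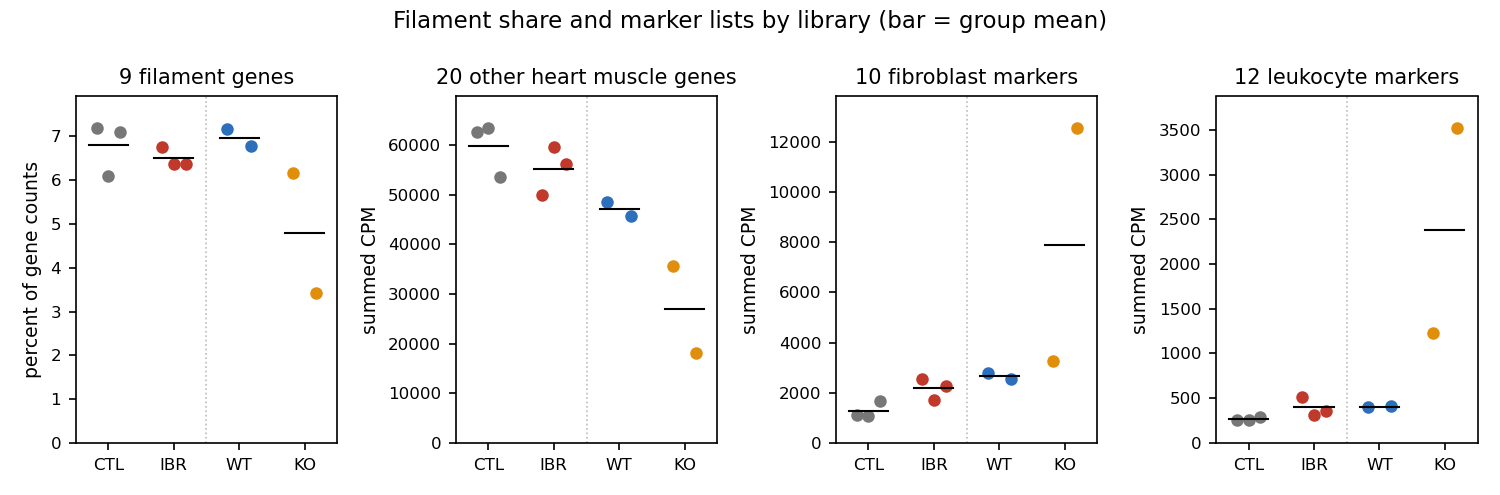
Share of all gene counts held by the 9 filament genes (left, percent) and summed CPM of 20 other heart muscle genes, 10 fibroblast markers and 12 leukocyte markers (y axes, linear from 0) by group (x axis), 1 point per library and a bar at the group mean. KO337 has the lowest filament share, 3.42%, and the highest fibroblast and leukocyte sums, 12559 and 3521 CPM.

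Other filament genes had lower medians than the members (-0.50) with the genotype label, with a single call. Under ibrutinib their medians lay on both sides of that of the members (-0.22). Of 12 tested thick filament partners (light chains, myosin-binding proteins and M-band proteins) 0 were called in either comparison, with medians of -0.24 under ibrutinib and -0.72 with the genotype label. Mybphl, a myosin-binding protein H-like gene of the atrium, stood at 837 and 701 CPM in WT and 479 and 332 CPM in the libraries labelled KO (log2 -0.92, adjusted p = 0.0541 in edgeR's quasi-likelihood test). Myom1, which links thick filaments at the M-band, differed by -0.85 (adjusted p = 0.0732). Under ibrutinib the smallest p in this list were those of Myl2 (log2 1.86, adjusted p = 0.823), at 2.9, 4.42 and 8.62 CPM in IBR and 0.626, 3.17 and 0.664 CPM in CTL, and of Myom3 (log2 -0.52, adjusted p = 0.823).

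Of 13 tested thin filament partners 0 were called in either comparison, with medians of -0.07 and -0.79. The lowest p in the genotype comparison were those of Tmod1, which caps the pointed ends of thin filaments (log2 -1.06, adjusted p = 0.0601), and Neb, nebulin (log2 -1.31, adjusted p = 0.0693), in edgeR's quasi-likelihood test. For ibrutinib they were those of Tpm2 (log2 -0.44) and Tnnt3 (log2 -0.57), both with an adjusted p of 0.823. Of 11 titin and Z-disc partners, Mypn was called lower in the libraries labelled KO. It encodes myopalladin, an alpha-actinin-binding protein of the Z-disc, and stood at 229 and 270 CPM in WT against 128 and 92 CPM in KO26 and KO337 (log2 -1.19, adjusted p = 0.0282). KO26 and KO337 were below the other 8 libraries, and without KO337 the difference was -0.99 with an adjusted p of 0.0531 in edgeR's quasi-likelihood test. Ldb3 followed (log2 -0.98, adjusted p = 0.0622), and Ankrd1, the stretch-responsive titin-binding gene, differed by -0.47 under ibrutinib and by -0.04 with the genotype label, with adjusted p of 0.824 and 0.961.

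Of 10 genes for filament assembly and turnover 0 were called, with medians of -0.15 and -0.66, and all 10 had negative differences in both comparisons. Unc45b, a chaperone for myosin folding, differed by -1.24 (adjusted p = 0.0598) and Rbm20, which directs titin splicing, by -1.03 (adjusted p = 0.064) in the libraries labelled KO. For ibrutinib the smallest p were those of Hsp90aa1 (log2 -0.22) and Trim54 (log2 -0.25). Of 13 transcription factors and coactivators that act on filament genes 0 were called, with medians of -0.14 and -0.32. Srf, which binds the CArG box, differed by -0.37 for IBR against CTL and its coactivator Myocd by -1.16 for KO against WT, with adjusted p of 0.823 and 0.0923 in edgeR's quasi-likelihood test. Nkx2-5 (log2 -0.30 for IBR against CTL) and Mef2d (log2 -0.47 for KO against WT) came next. At an unadjusted p under 0.05 in the genotype comparison there were 8 thick, 7 thin and 6 titin partners, 6 assembly genes and 2 factors on the lower side, and 1 thin partner on the higher side, against 12.4% and 13.3% of all genes. Without KO337 the medians of these 5 lists were -0.59, -0.38, -0.46, -0.41 and -0.20 with 0 called, while DESeq2 on all libraries called 8, 5, 5, 5 and 2 of them lower.

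The effect of ibrutinib was set against that of the genotype label by testing the difference of both effects, with 0 of 9 members called, against 0.026% of all genes (4 genes). No member passed an unadjusted p of 0.05 either, as 9.79% of all genes did, and DESeq2 called 0 members. Ttn came nearest, with a difference of 0.95 between its effects of 0.05 and -0.90 (SE 0.43, adjusted p = 0.507 in edgeR's quasi-likelihood test). Tnni3, Myh6 and Tnnt2 had differences of 0.83, 0.76 and 0.73 with adjusted p of 0.567, 0.612 and 0.554, and that of Actc1 was -0.07 (SE 0.32). Without KO26 the differences of Myh6, Tnnt2, Tnni3 and Ttn were 1.46, 1.18, 1.60 and 1.54. Without KO337 they were 0.34, 0.44, 0.38 and 0.57, so their size depended on which library labelled KO was kept.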

How the data were processed

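The files hold raw counts of reads per gene that the authors deposited, 1 file per library, without normalization. The submitters' processing notes name STAR, HTSeq, edgeR and the mm9 build; tool versions, gene models and filters were not given there. Per the labels' protocols the kit was directional and poly(A)-selecting, and per the names of the deposited files counting ignored strand. Each file had 37583 gene rows and 5 rows of unassigned reads, which were left out: 13.5% to 19.9% of counted records lay in no feature, 11.8% to 27.4% had no unique position and 3.14% to 3.99% were ambiguous. Of the identifiers, 32860 (87.4%) matched a symbol.

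Groups came from the sample titles. Counts were tested with edgeR 4.0.16 in R 4.3.3: filterByExpr (minimum count 10, total 15), TMM, robust quasi-likelihood over 4 group means, 6 residual degrees of freedom, Benjamini-Hochberg over 15364 genes. The filter left at least 99.77% of gene counts in each library, and 3 counts correspond to 0.15 to 0.201 CPM. The biological coefficient of variation was 0.221 over all libraries, 0.169 in CTL with IBR and 0.294 in WT with KO, so the spread used for WT and KO is smaller than their own. Per-library log2 values use a prior count of 2. Isoform ratios were compared by exact two-sided permutation. Lengths come from GENCODE vM21 and promoter windows and microRNAs from RefSeq. Scripts were tested on simulated data. Alternatives were DESeq2 1.42.0, other factors and filters, fits without each library, and a replicate block.

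The members and the gene lists were chosen with earlier results of these data known. Named genes are all members, the 2 partners of smallest p per list and comparison with every called partner, the most abundant gene of each cell type list, the 3 genes most like Myh6, Myh7, Acta1 and Tnni1, and Csk. Ryr2 and the Mir208 rows were added after their values were seen. The values of 1 gene are not reported here.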

Additional observations from a re-analysis of the deposited data

How the results depend on the processing

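Members called stayed at 0 for IBR against CTL under all 15 alternatives. For KO against WT 0 members were called with the main settings, 2 with heart muscle factors, 3 with DESeq2, 1 with no filter, 0 to 5 without each library in turn (5 without KO26), and, in alternatives chosen after seeing the data, 0 with heart muscle factors without KO337 and 4 with heart muscle factors without KO26. For the difference of both effects they ran from 0 to 4 without each library. Over all genes, IBR against CTL had 0 called, and 2 with DESeq2 and with no filter. KO against WT had 339 called, 8824 with heart muscle factors, 1858 with DESeq2, 1146 with no filter, 0 with the groups compared alone, 14 to 3933 without each library, and 82 and 12451 with heart muscle factors without KO337 and KO26. The difference of both effects had 4 called, 143 with DESeq2, 84 with no filter, 0 with upper quartile factors, library size alone or heart muscle factors, and 0 to 1564 without each library. Of the KO against WT calls 59.3% were higher, 81.7% with library size alone, where the median of all genes was 0.23, and 99.3% with heart muscle factors. For the other changes named here the cause was not tested.

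Signs turned for small and for larger differences. For IBR against CTL, Myh6 (-0.01) was 0.01 with upper quartile factors, 0.07 with library size alone, 0.19 with heart muscle factors, 0.03 with no filter, 0.02 with the groups compared alone and -0.16 to 0.09 without each library. With heart muscle factors Tnnt2 was 0.02 and Tnni3 0.00. Without each library Acta1 ran from -1.16 to 0.56, Tnni1 from -0.42 to 0.86 and Ttn from -0.16 to 0.17. For KO against WT with heart muscle factors Actc1 was 0.45, Myh6 0.07, Myh7 0.29 and Tpm1 0.59. With those factors and without KO337 they were 0.18, 0.16, 0.79 and 0.24, and without KO26 Actc1 was 0.68, Tpm1 0.87 and Tnnt2 0.07. Without each library Myh7 ran from -1.97 to 0.54 and Tnni1 from -0.11 to 0.70, and the log2 isoform ratios ran from -0.47 to 0.98 for Myh7 to Myh6 (KO against WT), from -0.30 to 0.87 for Acta1 to Actc1 (IBR against CTL) and from -0.19 to 1.11 for Tnni1 to Tnni3 (IBR against CTL).

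CTL and IBR share replicate numbers, and the labels do not say whether these pair libraries. To look for pairs, each gene's group mean was subtracted from its log2 CPM, and what remained was correlated between libraries over 15364 genes. By these remainders same-numbered libraries correlated at 0.016, 0.162 and 0.032, and libraries of different numbers at -0.197 to 0.182. The best partner of CTL2 was IBR2, while that of CTL1 and of CTL3 was another number. With 3 libraries per group these values cannot decide whether libraries were paired. With a replicate block 0 members and 0 genes were called, 3 members were lower at an unadjusted p under 0.05, and Myh6 was 0.04. The block gave each tested member a smaller SE than the groups compared alone, from 0.39 against 0.70 for Acta1 to 0.27 against 0.29 for Myh7. WT and KO share no numbers, so no paired analysis was possible there because their labels carry different ones. Depth limits Acta1 and Tnni1, whose rows hold at most 80 counts.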
